A study of Arabidopsis thaliana with 18 samples.

Results

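The indole-3-pyruvate route to auxin was followed through 10 genes of Arabidopsis thaliana, the thale cress, out of 27564 genes measured in whole embryos. They were listed by identifier, and the list was chosen with earlier results of these data known. It holds 3 aminotransferase genes, TAA1 (AT1G70560), TAR1 (AT1G23320) and TAR2 (AT4G24670), and 7 YUCCA genes, YUC1 (AT4G32540), YUC2 (AT4G13260), YUC3 (AT1G04610), YUC4 (AT5G11320), YUC8 (AT4G28720), YUC9 (AT1G04180) and YUC10 (AT1G48910). Auxin, or indole-3-acetic acid, is made from tryptophan in a pair of steps. TAA1 and its relatives convert tryptophan to indole-3-pyruvate, and the YUCCA flavin monooxygenases convert indole-3-pyruvate to auxin, a step regarded as rate-limiting. In the embryo, mutants that lack several members of either family are known to fail to form the root pole and to have misshapen or missing cotyledons.

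Whole embryos had been dissected by hand, and 3 libraries were made for each of 6 stages, named in the labels by cell number (2/4-cell, 8-cell, 16-cell, 32-cell) or by shape (globular, heart), 18 in all. Each comparison therefore asks how mRNA levels change as the embryo grows. The plants grew at 22 °C in days of 16 h light. The accession, the genotype and the number of embryos per library are not given in the sources used here, and no label says that the replicates came from separate plants, so p-values measure the spread between these samples, which may be technical. Values are TPM, in which every library sums to 1000000, and means are given ± SD (n = 3). The sequencing depth is unknown.

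Between 15381 and 16731 genes reached 1 TPM in a library. Markers of the seed coat, the maternal tissue around the embryo, were present in all libraries. Of 13 such genes, 12 were tested. Over all 13 the summed level ranged from 377 to 1464 TPM at the 2/4-cell stage, from 38.3 to 70.5 at the 8-cell stage, from 16.7 to 22.7 at the 16-cell stage, from 38.0 to 267 at the 32-cell stage, from 14.8 to 38.0 at the globular stage and from 19.9 to 30.5 at the heart stage. TT10 was the seed coat marker at or near 0 throughout, with at most 0.188 TPM. Of 10 endosperm markers, only SUC5, a sucrose carrier, reached 1 TPM in more than 1 library, at 1.43 to 35.1 TPM. The other endosperm markers summed to 0.370 to 38.8 TPM at the 2/4-cell stage and to at most 1.61 TPM in any later library, and MEA was listed at 0 in 16 of 18 libraries. The highest values belonged to replicate 3 of the 2/4-cell stage for both lists, and replicate 2 stood out for the seed coat list at the 32-cell stage. All 7 embryo markers, among them the homeobox gene WOX2, passed the filter for testing, and their summed level ranged from 826 to 4184 TPM. Most of that sum was PDF1, with a mean of 3274 of 3846 TPM at the globular stage. WOX2 had means of 137 TPM at the 2/4-cell and 19.3 TPM at the heart stage. Between these stages 4 of the 7 markers were called lower and 2 higher, against 46.9% of all genes called. The part of the seed coat and endosperm transcripts in the results below was not tested. Results were also recomputed without those libraries. This cannot test the seed coat part, since 2/4-cell replicates 1 and 2 still held 377 and 906 TPM of its markers.

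The stretches before the gene starts of YUC4, YUC3 and YUC9 are shown because each holds a short element tied by name to a class of regulator whose levels are described further on. They are the 250 bases before the annotated start of each gene in RefSeq's TAIR10.1 genome, read 5′ to 3′ on the gene's strand, with the element in capitals. YUC4 lies on the minus strand (chr5:3613641-3613890), and YUC3 (chr1:1279101-1279350) and YUC9 (chr1:1104243-1104492) lie on the plus strand.
YUC4: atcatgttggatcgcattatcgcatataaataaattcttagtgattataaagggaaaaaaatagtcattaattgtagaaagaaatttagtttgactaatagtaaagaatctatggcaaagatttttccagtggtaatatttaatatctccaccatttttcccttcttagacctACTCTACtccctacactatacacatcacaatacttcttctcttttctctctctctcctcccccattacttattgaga
YUC3: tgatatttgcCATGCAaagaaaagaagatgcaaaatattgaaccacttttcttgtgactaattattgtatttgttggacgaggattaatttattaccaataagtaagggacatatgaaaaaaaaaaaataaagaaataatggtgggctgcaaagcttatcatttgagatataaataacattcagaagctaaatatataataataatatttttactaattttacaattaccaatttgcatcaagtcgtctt
YUC9: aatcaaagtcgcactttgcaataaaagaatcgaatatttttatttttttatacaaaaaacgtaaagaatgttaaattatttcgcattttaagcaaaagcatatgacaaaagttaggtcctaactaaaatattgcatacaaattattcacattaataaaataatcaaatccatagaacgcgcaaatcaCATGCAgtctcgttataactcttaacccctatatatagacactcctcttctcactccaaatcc
The capitals in YUC4 are ACTCTAC, the element known to be bound by STY1, beginning 77 bases before the start. In YUC3 and YUC9 they are CATGCA, the RY element known to be bound by B3 factors such as LEC2 and FUS3, beginning 240 and 63 bases before the start. Both strands were searched for these and for the G-box CACGTG and the auxin response element TGTCTC, and no match in these windows overlapped another. Among 27443 promoters of the same length, ACTCTAC was found in 1.75%, CATGCA in 8.43%, CACGTG in 6.49% and TGTCTC in 10.9%. Of the other members, YUC2 held TGTCTC on its minus strand, 44 bases before the start, and the remaining 6 windows held none of the 4. A match describes the letters only and does not show that a factor binds there.

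In that annotation TAA1, TAR1, YUC3, YUC9 and YUC10 lie on chromosome 1, TAR2, YUC1, YUC2 and YUC8 on chromosome 4 and YUC4 on chromosome 5, and no annotated gene overlaps any of them. YUC8 has a single exon, YUC9 has 2, and the others have 3 to 5. Since reads were matched to transcripts by short words, the transcripts were compared by shared words of 31 bases. The comparison covered only the members and the other genes on the lists used here, not all genes. TAA1 and TAR1 shared 6 words, 0.395% of those of TAA1, and YUC9 shared 20 of its 1619 words, 12 of them with YUC5. The other 7 members shared none with the listed genes, and words shared with genes off the lists were not searched.

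**Figure D1:**
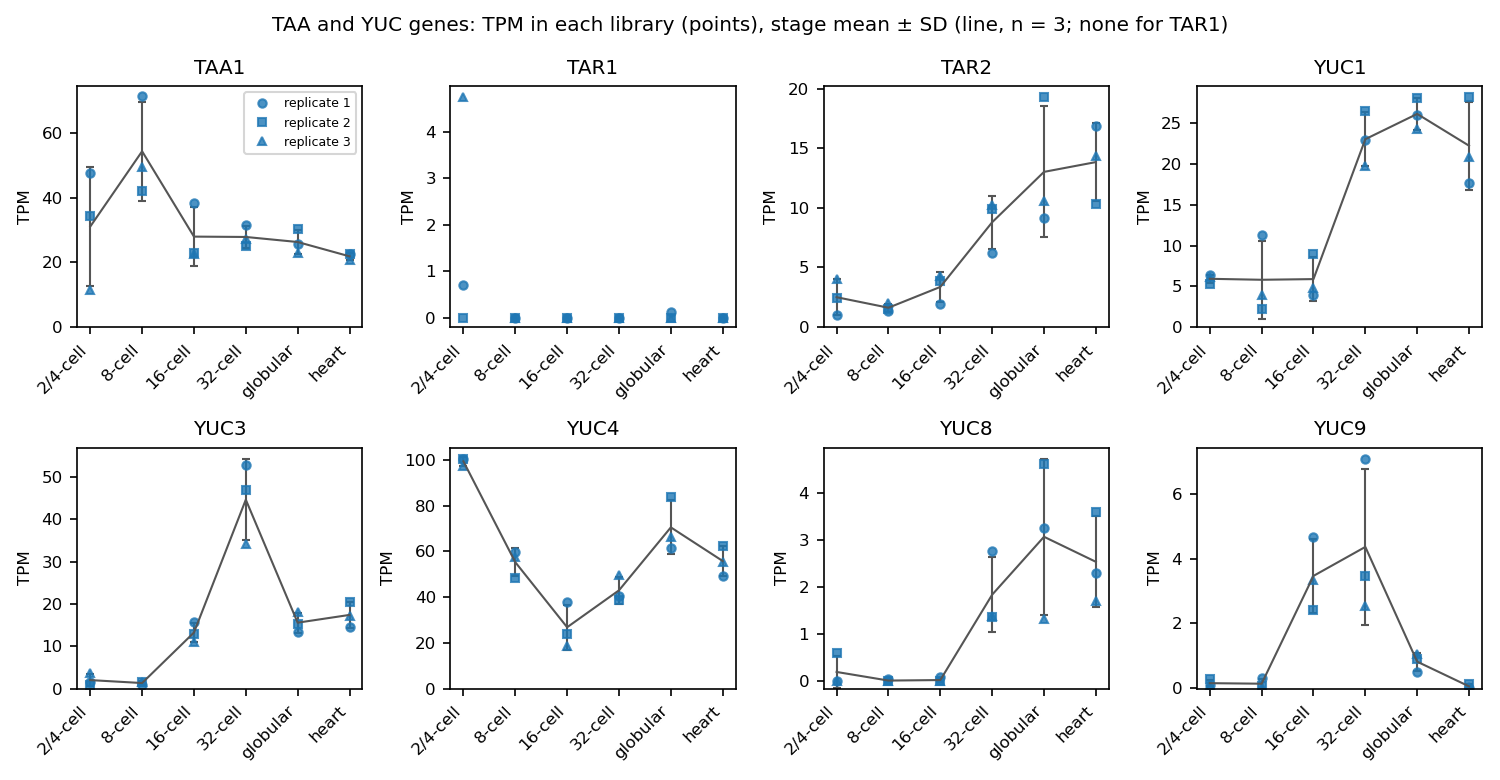
TPM of 8 genes (y axis, a separate linear scale in each panel) in each library at the 6 stages (x axis); points are libraries, and lines and bars are stage means and SD over 3 libraries, drawn for all but TAR1. YUC4 starts at 99.4 TPM and passes through its lowest mean, 26.8 TPM, at the 16-cell stage, YUC3 peaks at 44.7 TPM at the 32-cell stage, and TAR1 exceeds 1 TPM in 1 library.

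Of the 3 aminotransferase transcripts, TAA1 had the highest mean at every stage. At the 2/4-cell stage it stood at 47.6, 34.4 and 11.4 TPM in replicates 1 to 3, at the 8-cell stage at 71.6, 42.1 and 49.5 TPM, and at the 16-cell stage at 38.5, 22.8 and 22.7 TPM. Its later values were 31.5, 24.9 and 27.3 TPM at the 32-cell stage, 25.7, 30.4 and 22.9 TPM at the globular stage and 22.5, 22.6 and 20.6 TPM at the heart stage. The 8-cell libraries lay above all those of later stages, and the 2/4-cell libraries spread from 11.4 to 47.6 TPM and overlapped those of every other stage. The limma F test over the 6 stages did not call TAA1 (adjusted p = 0.0798), and 7 of 27 alternative settings did (adjusted p from 0.00328 to 0.348). From its mean of 54.4 ± 15.4 TPM at the 8-cell stage, TAA1 was lower by 1.24 on the log2 scale at the heart stage, at 21.9 ± 1.12 TPM (SE 0.36, limma adjusted p = 0.0116). That call was lost without replicate 1 of the 8-cell stage (adjusted p = 0.0568). The fall to the globular stage passed only narrowly (adjusted p = 0.0485) and was kept in 13 of 28 alternatives. Its mean level was highest at the 8-cell stage, followed by the other 5 stages in order of age, and no stage differed from the next in that order (adjusted p from 0.112 to 1), except that without replicate 1 of the 2/4-cell stage the 8-cell stage was higher (adjusted p = 0.0144).

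TAR2, a relative known to act redundantly with TAA1, was higher at the later stages. Its libraries held 1.03, 2.43 and 4.05 TPM at the 2/4-cell stage, 1.34, 1.53 and 1.98 TPM at the 8-cell stage and 1.92, 3.86 and 4.32 TPM at the 16-cell stage. They held 6.25, 9.93 and 10.2 TPM at the 32-cell stage, 9.15, 19.3 and 10.6 TPM at the globular stage and 16.8, 10.3 and 14.4 TPM at the heart stage. All 9 later libraries lay above all 9 earlier ones. TAR2 varied over the stages (F test adjusted p = 4.55e-05) and was 4.45-fold higher at the heart than at the 2/4-cell stage, with 13.8 ± 3.28 TPM at heart (log2 difference 2.15, SE 0.39, limma adjusted p = 0.000203). Folds and log2 differences here and below are those of the fit on log2(TPM + 1), which understates changes of low genes. The step from the 16-cell to the 32-cell stage measured 1.19 on the log2 scale and did not pass (adjusted p = 0.0826), while heart exceeded the 8-cell stage by 2.48 (adjusted p = 6.98e-05). Whole embryos were measured, so fewer cells that express a gene and less of its RNA per cell cannot be told apart.

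TAR1 was listed at 0 in 15 of 18 libraries. It stood at 0.701, 0 and 4.74 TPM in the 2/4-cell libraries and at 0.130 TPM in 1 globular library. It did not pass the filter for testing, and a value of exactly 0 in a table without counts can be a failed estimate. The 2/4-cell library with 4.74 TPM, replicate 3, was also the library with 9.22 TPM of AGL62, 19.3 TPM of PHE1 and 9.52 TPM of FWA, all genes of the endosperm. In all other libraries these markers reached at most 0.661, 0.425 and 0.509 TPM. In 2/4-cell replicate 1, where TAR1 stood at 0.701 TPM, they measured 0, 0 and 0.222 TPM. The endosperm marker FIS2 was highest in 2/4-cell replicate 2, at 0.933 TPM, where TAR1 was at 0. SUC5, the most abundant endosperm marker, measured 29.9, 10.8 and 19.0 TPM in 2/4-cell replicates 1 to 3, and the seed coat sum was highest in replicate 3, at 1464 TPM. The endosperm markers IKU2, MINI3 and ZOU stayed at or below 0.235 TPM in all 18 libraries. TAR1 thus has a value above 1 TPM in a single library, and whether it came from the embryo was not tested.

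**Figure D2:**
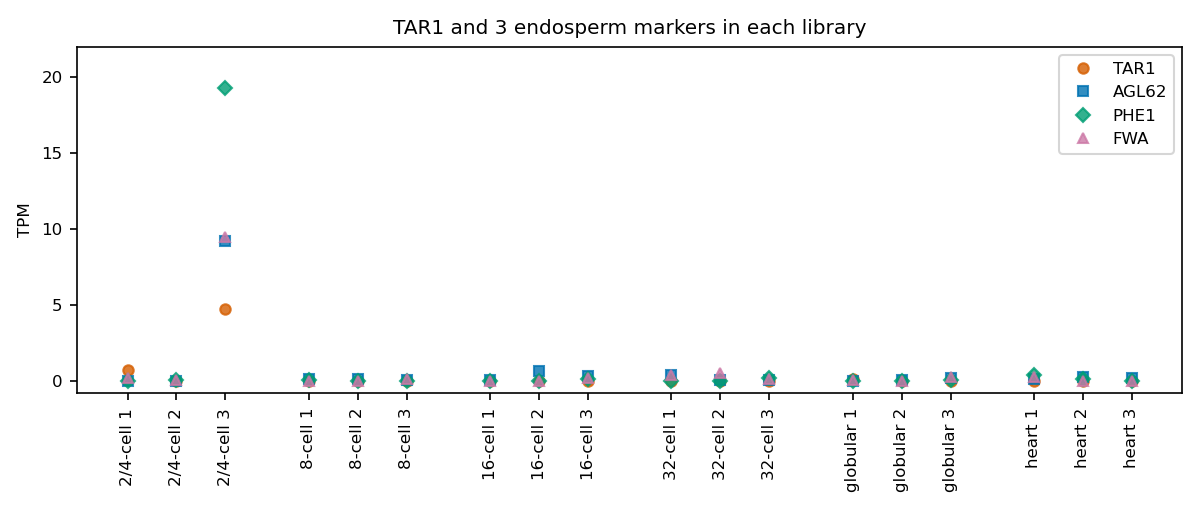
TPM (y axis, linear) of TAR1 and of the endosperm genes AGL62, PHE1 and FWA in each of the 18 libraries (x axis, stage and replicate); each point is 1 library. All 4 genes are highest in replicate 3 of the 2/4-cell stage, where TAR1 is at 4.74 TPM, and near 0 elsewhere.

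YUC4 was the most abundant YUC transcript at the start. It measured 100.6, 100.3 and 97.3 TPM at the 2/4-cell stage, 59.9, 48.4 and 57.5 TPM at the 8-cell stage and 37.9, 23.9 and 18.7 TPM at the 16-cell stage. It then measured 40.3, 38.9 and 49.7 TPM at the 32-cell stage, 61.5, 83.9 and 66.1 TPM at the globular stage and 49.4, 62.5 and 55.4 TPM at the heart stage. The libraries of the 3 earliest stages did not overlap, nor did those of the 3 stages from 16-cell to globular. YUC4 varied over the stages (F test adjusted p = 1.67e-05). From 99.4 ± 1.84 TPM it fell by 1.91 on the log2 scale to 26.8 ± 9.92 TPM at the 16-cell stage (SE 0.21, limma adjusted p = 4.50e-06) and was called in all 28 alternatives. From there it rose 2.65-fold to 70.5 ± 11.9 TPM at the globular stage (adjusted p = 0.000139), again called in all 28 alternatives.

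The single steps of YUC4 were less firm than the course as a whole. From the 2/4-cell to the 8-cell stage it fell by 0.84 on the log2 scale (adjusted p = 0.0174), and this did not hold with library weights (adjusted p = 0.136), with only these stages in the fit (adjusted p = 0.0671) and without replicate 2 of the 8-cell stage (adjusted p = 0.0710). From the 8-cell to the 16-cell stage it fell by 1.07 (adjusted p = 0.0130), which was lost with only these stages in the fit (adjusted p = 0.297) and without any of 4 libraries, 8-cell replicates 1 and 3 and 16-cell replicates 2 and 3 (adjusted p from 0.0504 to 0.0686). The rises from the 16-cell to the 32-cell stage, 0.71, and from the 32-cell to the globular stage, 0.70, did not pass (adjusted p = 0.0562 and 0.117). The latter rise was called with library weights (adjusted p = 0.00189), with only its stages in the fit (adjusted p = 0.0392) and without replicate 1 of the 16-cell stage (adjusted p = 0.0473). Heart stood 0.83 below the 2/4-cell stage on the log2 scale, at 55.8 ± 6.56 TPM (adjusted p = 0.00407, called in all 28 alternatives). Seed coat sums were also lower at the 8-cell than at the 2/4-cell stage, at 38.3 to 70.5 against 377 to 1464 TPM, and their part in the fall of YUC4 was not tested. In order of mean level the stages ran 2/4-cell, globular, heart, 8-cell, 32-cell and 16-cell, and no neighbours in that order differed (adjusted p from 0.0562 to 1). After median-ratio scaling or quantile normalization the 2/4-cell stage did exceed the globular stage (adjusted p = 0.000783 and 0.00840). It also did so without replicate 1 or replicate 3 of the 16-cell stage (adjusted p = 0.0295 and 0.0359). With library weights, or without replicate 1 of the 16-cell stage, the 32-cell stage exceeded the 16-cell stage (adjusted p = 0.0315 and 0.00827).

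YUC3 rose from the 16-cell stage on and peaked at the 32-cell stage. Its libraries held 1.48, 0.874 and 3.64 TPM at the 2/4-cell stage, 0.764, 1.61 and 1.53 TPM at the 8-cell stage and 15.8, 12.9 and 11.1 TPM at the 16-cell stage. They held 53.0, 47.0 and 34.1 TPM at the 32-cell stage, 13.4, 15.3 and 18.1 TPM at the globular stage and 14.5, 20.5 and 17.2 TPM at the heart stage. The 3 libraries of the 32-cell stage exceeded the other 15, and the 6 earliest lay below all 12 later ones. YUC3 had the lowest F test p among the members (adjusted p = 2.09e-08). It rose 6.23-fold from the 8-cell to the 16-cell stage (log2 difference 2.64, SE 0.33, limma adjusted p = 0.000343) and 3.18-fold again to 44.7 ± 9.65 TPM at the 32-cell stage (adjusted p = 0.00476), a step called in all 28 alternatives. The rise into the 16-cell stage was lost with only the 8-cell and 16-cell stages in the fit (adjusted p = 0.116). From the 32-cell to the globular stage YUC3 fell by 1.45 on the log2 scale to 15.6 ± 2.38 TPM (adjusted p = 0.0282). That fall was lost with a pseudocount of 0.1 (adjusted p = 0.107) and on leaving out any 1 globular library or replicate 1 or 2 of the 32-cell stage (adjusted p from 0.0552 to 0.138). The log2 difference of the heart from the 32-cell stage was -1.30 (limma adjusted p = 0.0172), a call kept in 23 of 28 alternatives. The 16-cell, globular and heart stages, which are neighbours in the order of its means, did not differ (adjusted p from 0.402 to 1), and neither did the 2/4-cell and 8-cell stages (adjusted p = 0.670).

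YUC9 shared the window of YUC3 but at lower levels and without its persistence. It measured 4.66, 2.41 and 3.32 TPM at the 16-cell stage and 7.07, 3.47 and 2.54 TPM at the 32-cell stage. Before that it lay between 0.0429 and 0.312 TPM, at the globular stage it measured 0.506, 0.912 and 1.04 TPM, and at the heart stage 0, 0.126 and 0.0517 TPM. The 6 libraries of the 16-cell and 32-cell stages lay above all others. YUC9 varied over the stages (F test adjusted p = 1.27e-05). It rose 3.85-fold from the 8-cell to the 16-cell stage (log2 difference 1.95, SE 0.33, limma adjusted p = 0.00416), a call lost with only these stages in the fit (adjusted p = 0.127). It was 2.25 lower at the heart than at the 32-cell stage on the log2 scale, at 0.0591 ± 0.0631 against 4.36 ± 2.39 TPM (adjusted p = 0.000155, called in all 27 alternatives that gave a value). The fall from the 32-cell to the globular stage, by 1.48, passed (adjusted p = 0.0239) and was lost in 6 of 27 alternatives, among them without 32-cell replicate 1 (adjusted p = 0.131) and with a pseudocount of 0.1 (adjusted p = 0.145).

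YUC1 rose in a single step. It stood at 6.33, 5.34 and 6.10 TPM at the 2/4-cell stage, at 11.3, 2.22 and 3.93 TPM at the 8-cell stage and at 3.91, 8.95 and 4.81 TPM at the 16-cell stage. It then stood at 22.9, 26.5 and 19.8 TPM at the 32-cell stage, at 26.1, 28.2 and 24.3 TPM at the globular stage and at 17.7, 28.2 and 20.8 TPM at the heart stage. The 9 earlier libraries all lay below the 9 later ones. YUC1 rose 3.64-fold from the 16-cell to the 32-cell stage, from 5.89 ± 2.69 to 23.1 ± 3.34 TPM (log2 difference 1.86, SE 0.39, limma adjusted p = 0.00616), a call kept in all 28 alternatives. Within the 3 later stages, and within the 3 earlier ones, no neighbours in the order of means differed (adjusted p from 0.865 to 0.939 and from 0.917 to 0.932).

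YUC8, a gene best known for seedling responses to heat and shade, came up in the same step as YUC1 at lower levels. It was listed at 0 in 6 of the 9 libraries up to the 16-cell stage, where it reached at most 0.598 TPM. Later it measured 2.77, 1.36 and 1.40 TPM at the 32-cell stage, 3.26, 4.63 and 1.34 TPM at the globular stage and 2.31, 3.61 and 1.71 TPM at the heart stage. All later libraries lay above all earlier ones. The rise from the 16-cell to the 32-cell stage measured 1.43 on the log2 scale (SE 0.36, limma adjusted p = 0.0205). It was lost with a pseudocount of 5 (adjusted p = 0.0863), with quantile normalization (adjusted p = 0.175) and on leaving out replicate 3 of the 16-cell stage (adjusted p = 0.0656) or replicate 1 of the 32-cell stage (adjusted p = 0.115). Over the 6 stages YUC8 was called in all 26 alternatives that gave a value (main adjusted p = 0.000118).

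YUC2 and YUC10 were listed at 0 in 17 of 18 libraries each. The exceptions were heart libraries, replicate 1 with 0.0630 TPM of YUC2 and replicate 2 with 0.176 TPM of YUC10. Neither passed the filter, so no statement about their course can be made.

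Read stage by stage, 7 of the 10 members passed the filter of 1 TPM in 3 libraries, and 6 of these 7 varied over the course at an adjusted p under 0.05, where 49.1% of all 18338 genes tested did. YUC8 and YUC9 passed only through libraries of the stages where they were high, with 1 TPM in 9 and 7 libraries. Their calls, here and in the steps below, are thus partly set by the filter. From the 2/4-cell to the 8-cell stage 1 member fell, YUC4, and none rose, against 8.77% of all genes called. From the 8-cell to the 16-cell stage YUC3 and YUC9 rose and YUC4 fell, 3 of 7 members against 1.56% of all genes. From the 16-cell to the 32-cell stage YUC1, YUC3 and YUC8 rose and none fell, against 6.06% of all genes. The median log2 change of the 7 members in that step was 1.19, beside 0.24 for all genes tested.

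From the 32-cell to the globular stage YUC3 and YUC9 fell and none rose, against 1.94% of all genes called. From the globular to the heart stage limma called no member, against 0.578% of all genes, and 1 member, YUC9, had an unadjusted p under 0.05. With library weights YUC9 was called lower there. Between the ends of the course TAR2, YUC1, YUC3 and YUC8 were higher at the heart than at the 2/4-cell stage and YUC4 was lower, 5 of 7 members against 46.9% of all genes. The median log2 difference of the members was 1.56 and that of all genes 0.46, a shift that fell to 0.03 after median-ratio scaling, under which the same 5 members were called in the same directions. TAA1 differed by -0.28 between these ends (adjusted p = 0.545), from -0.86 without replicate 3 of the 2/4-cell stage (adjusted p = 0.0152) to 0.13 without replicate 1. Pairs of stages further apart share libraries with these steps, so their calls are not independent of them. Against the 2/4-cell stage, 3 members were called at the 16-cell stage (16.9% of all genes), 6 at the 32-cell stage (28.2%) and 4 at the globular stage (40.1%). Against the 8-cell stage, 5 were called at the 32-cell stage (13.3%), 5 at the globular stage (25.8%) and 5 at the heart stage (35.9%). Against the 16-cell stage, 5 were called at the globular stage (21.7%) and 5 at the heart stage (34.1%), and from the 32-cell to the heart stage 2, YUC3 and YUC9, were lower (9.01%). Over all 15 pairs this made 54 calls, 41 of them with the later stage higher. YUC1, YUC8 and TAR2 were called in none but pairs that cross from the 3 earlier to the 3 later stages.

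**Figure D3:**
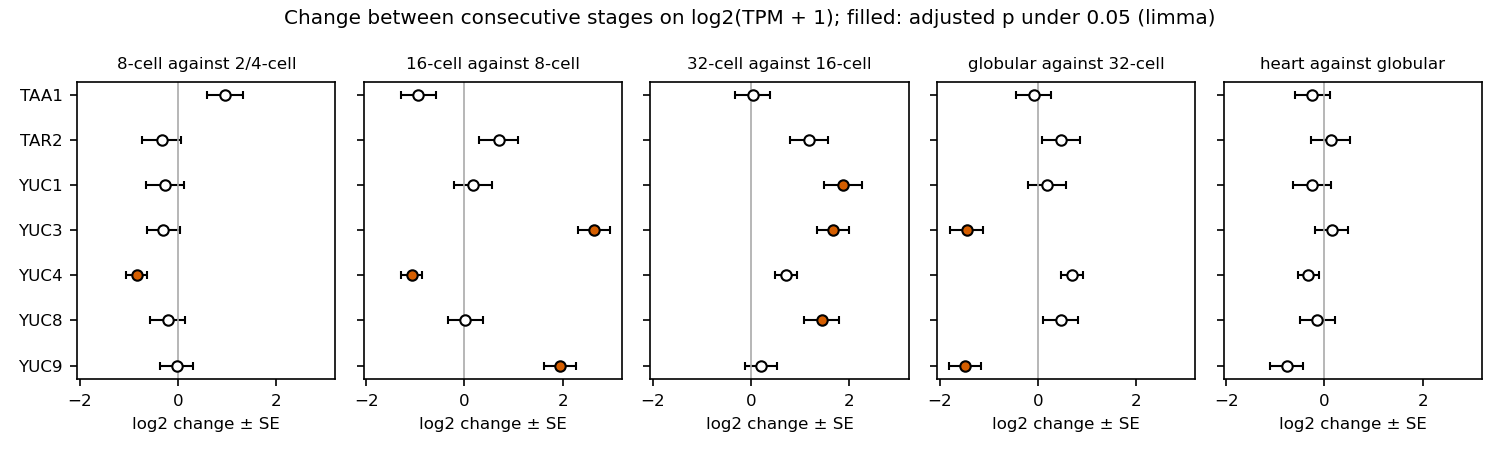
Change of the 7 tested members between consecutive stages (x axis, log2 difference on TPM + 1, later minus earlier stage; 1 panel per step); points are fitted differences, bars their standard errors, and filled points have an adjusted p under 0.05 in limma. YUC4 falls in both early steps, YUC3 and YUC9 rise into the 16-cell stage and fall after the 32-cell stage, and no member is called from globular to heart.

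The YUC genes' sum and its makeup are described here without a test. The 7 YUC genes summed to 108 ± 0.757 TPM at the 2/4-cell stage, 62.5 ± 9.99 at the 8-cell stage and 49.4 ± 12.2 at the 16-cell stage. They summed to 117 ± 9.24 TPM at the 32-cell stage, 116 ± 14.8 at the globular stage and 98.2 ± 15.8 at the heart stage. The sums of the 8-cell and 16-cell libraries, 37.9 to 72.3 TPM, lay below those of all other libraries, 84.1 to 133 TPM. The sum was thus about as high at the 2/4-cell as at the 32-cell stage, but the shares of the genes in it differed. YUC4 held 92.3% ± 1.34 of it at the 2/4-cell stage, 88.9% ± 5.26 at the 8-cell stage, 53.2% ± 6.55 at the 16-cell stage and 37.1% ± 7.91 at the 32-cell stage. It then held 60.5% ± 2.34 at the globular and 57.1% ± 2.46 at the heart stage. YUC3 went from 1.86% ± 1.36 and 2.19% ± 1.03 to 27.1% ± 2.03 at the 16-cell and 37.9% (31.7% to 42.0%) at the 32-cell stage, and then stood at 13.5% ± 2.50 and 17.7% ± 0.388. YUC1 went from at most 5.83% at the 2/4-cell stage to 22.5% ± 1.79 at the heart stage.

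**Figure D4:**
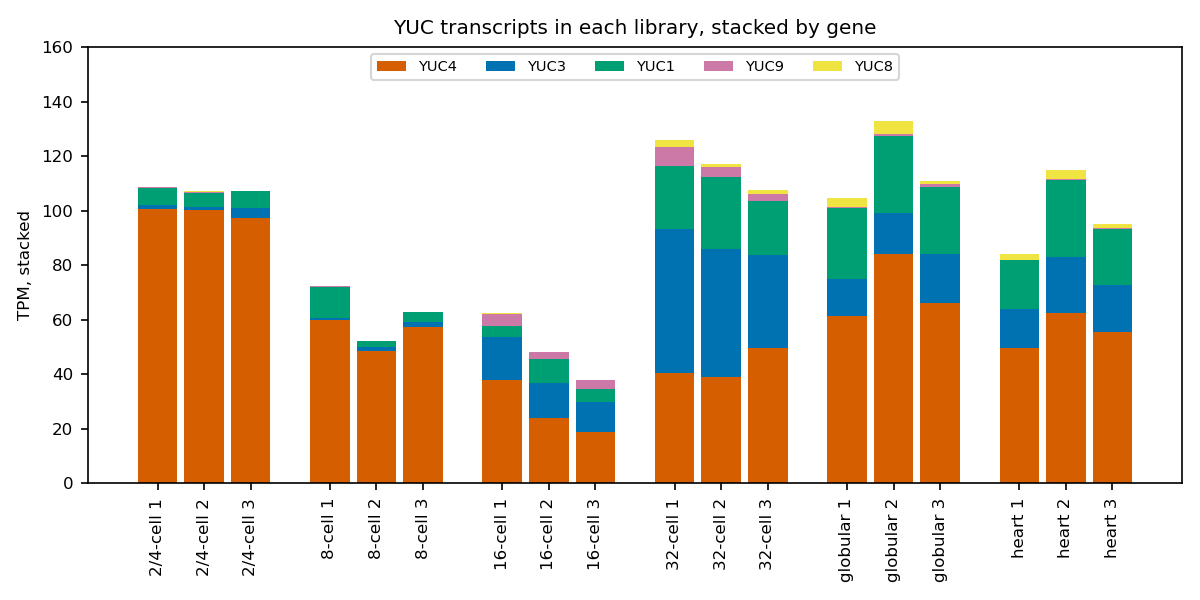
TPM of YUC4, YUC3, YUC1, YUC9 and YUC8 stacked (y axis, linear from 0) in each of the 18 libraries (x axis, stage and replicate); each color is a gene, and YUC2 and YUC10, at or near 0, are not drawn. YUC4 makes up nearly the whole bar at the 2/4-cell and 8-cell stages, and YUC3 and YUC1 fill much of it at the 32-cell stage.

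The 3 aminotransferase genes summed to 35.4 ± 14.6, 56.0 ± 15.2, 31.4 ± 7.83, 36.7 ± 1.57, 39.4 ± 8.99 and 35.7 ± 3.28 TPM from the 2/4-cell to the heart stage. TAR2 held 3.07% ± 1.08 of that sum at the 8-cell stage and 38.4% ± 6.16 by heart, and TAA1 most of the rest. The sum of YUC transcripts per aminotransferase transcript was lowest at the 8-cell stage, 1.14 ± 0.127, where its libraries (0.991 to 1.22) lay below those of all other stages. It was 1.58 ± 0.201 at the 16-cell stage and 3.19 ± 0.277 at the 32-cell stage. At the 2/4-cell stage it ranged from 2.20 to 5.30.

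Across the 18 libraries the members fell into courses that can be described by Pearson's r of log2(TPM + 1), given with no test since libraries of a stage share that stage. YUC1 and YUC8 were most alike (r = 0.87), followed by TAR2 with YUC8 (r = 0.85) and TAR2 with YUC1 (r = 0.84). YUC3 had r = 0.74 with TAR2, 0.70 with YUC1, 0.65 with YUC9 and 0.64 with YUC8, and YUC4 and YUC9 had r = -0.65. TAA1 had r between -0.60 and 0.09 with every other tested member. Among 5843 genes with a stage mean of 10 TPM or more, those most like TAR2 were CCB1 (r = 0.96), GA2OX2 (r = 0.96) and ENH1 (r = 0.96), and those most like YUC3 were SCPL19 (r = 0.96), CHR38 (r = 0.96) and MCT1 (r = 0.94). Most like YUC4 were TBL26 (r = 0.90), the cellulose synthase gene CESA5 (r = 0.88) and TPR3 (r = 0.87), a gene of the TOPLESS family of co-repressors. TPR3, as an example, had means of 35.3, 18.5, 8.84, 13.3, 15.2 and 18.1 TPM from the 2/4-cell to the heart stage. Most like YUC1 were KCS2 (r = 0.94), NRPB9A (r = 0.93) and YCF37 (r = 0.93), and most like TAA1 were SEH1H (r = 0.88), RSZ22 (r = 0.85) and CDPK1 (r = 0.85).

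The rest of both families added little. YUC5, YUC7, YUC11 and AT1G34040, annotated as an alliinase-type aminotransferase, did not pass the filter. Their highest values were 0.496, 1.92, 0.420 and 1.81 TPM, each in 1 library. YUC6 (AT5G25620), at stage means of 0.153 to 1.26 TPM, and AT1G34060, the neighbouring alliinase-type gene, at 0.619 to 3.35 TPM, were tested and not called over the course (F test adjusted p = 0.609 and 0.0819).

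Upstream of the members, the 11 genes of tryptophan synthesis were all tested and 1 was called over the course, beside 49.1% of all genes. It was PAI1, a phosphoribosylanthranilate isomerase gene (F test adjusted p = 0.0163), at 15.1 to 25.5 TPM, which shares 48.2% of its 31-base words with its copies, so its value is uncertain, and which was not called under median-ratio scaling (adjusted p = 0.360). The tryptophan synthase genes TSB1 and TSA1, at stage means of 84.9 to 119.7 and 44.0 to 64.2 TPM, were not called (adjusted p = 0.233 and 0.392).

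Of 8 genes listed under other routes to auxin, through indole-3-acetaldoxime, nitrile or amide, 5 were tested and 2 were called over the course, beside 49.1% of all genes. Whether each of them, NIT4 included, acts in such a route was not tested. CYP79B2, CYP79B3 and CYP71A13, which make and convert the aldoxime, reached at most 0.598, 0.130 and 0 TPM. The nitrilase gene NIT1 had means of 4.11 ± 2.62 TPM at the 2/4-cell stage, 0.134 ± 0.124 at the 8-cell stage, and by heart 23.6 ± 12.8 (F test adjusted p = 1.36e-05), and it shares 8.31% of its words with other genes, mainly NIT2. NIT4 peaked at 3.39 ± 2.05 TPM at the 32-cell stage (adjusted p = 0.0288, not called in 5 of 26 alternatives). Outside that stage it reached 1 TPM only in 2/4-cell replicate 3, so its call is partly set by the filter. NIT3 and NIT2 were not called (adjusted p = 0.721 and 0.583).

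Downstream, of 15 genes that conjugate, methylate, oxidize or release auxin or return its precursor, 10 were tested and 7 were called over the course, beside 49.1% of all genes. Of the 7, ILR1, which releases auxin from conjugates, was called in 8 of 27 alternatives (main adjusted p = 0.0476). IAMT1, a methyltransferase that turns auxin into its methyl ester, held 92.3, 41.4 and 146 TPM in the 2/4-cell libraries, whose seed coat markers summed to 377, 906 and 1464 TPM in the same order. The part of seed coat transcripts in its level was not tested. It fell by 3.44 on the log2 scale to 8.59 ± 6.03 TPM at the 8-cell stage (SE 0.55, limma adjusted p = 0.000392), a call lost with only these stages in the fit (adjusted p = 0.113). Without replicate 1 of the 8-cell stage the log2 difference was -2.68. It stood at 0.760 ± 0.253 TPM at the 16-cell and 25.3 ± 13.6 TPM at the heart stage. Of 7 genes of GH3 enzymes, which join auxin to amino acids, 4 were tested and GH3.2, GH3.5 and GH3.17 were called over the course. GH3.2 rose 8.17-fold from the 8-cell to the 16-cell stage, to 9.50 ± 2.92 TPM (adjusted p = 0.00227), the step in which YUC3 and YUC9 rose. With only these stages in the fit its call was lost (adjusted p = 0.116), and it shares 7.38% of its words, mainly with GH3.4. GH3.5 was 13.1-fold higher at the heart than at the 2/4-cell stage, at 26.3 ± 7.27 against 2.03 ± 3.33 TPM (adjusted p = 6.02e-05). The log2 difference of GH3.5, 3.71, became 4.59 without replicate 3 of the 2/4-cell stage, which held 5.87 TPM. GH3.17 was 3.41-fold higher at heart than at the 2/4-cell stage, at 2.69 ± 1.11 TPM (adjusted p = 0.000642). It reached 1 TPM in no 2/4-cell or 8-cell library, so its calls are partly set by the filter. ILL2, of the same family as ILR1, and AT1G14130, an oxygenase gene, were not called (F test adjusted p = 0.193 and 0.605).

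Of 9 transcription factors, from the STY1 family, the LEC and FUS3 group and SPL, of which several are known to act on YUC genes, 8 were tested and 7 were called over the course, beside 49.1% of all genes. LRP1, of the same family as STY1, was 18.1-fold higher at the heart than at the 2/4-cell stage, at 84.7 ± 3.79 against 4.36 ± 3.41 TPM (log2 difference 4.18, SE 0.31, limma adjusted p = 6.17e-09). FUS3, a B3 factor of the RY element, was 14.8-fold higher, at 71.6 ± 1.76 against 5.53 ± 5.94 TPM (adjusted p = 1.08e-06). Its log2 difference, 3.88, became 4.60 without replicate 1 and 3.298 without replicate 3 of the 2/4-cell stage. STY2 was at or below 0.107 TPM up to the 32-cell stage and rose to 8.27 ± 1.62 TPM at the heart stage (adjusted p = 2.03e-07 against the 2/4-cell stage). It passed the filter only through globular and heart libraries, where it was high, so its calls are partly set by the filter. SPL peaked at 3.54 ± 1.83 TPM at the 32-cell stage (F test adjusted p = 0.0187, not called in 4 of 26 alternatives), and LEC1, at 203 to 584 TPM, was not called (adjusted p = 0.0555).

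STY1, SHI and LEC2 were singled out after their values were seen. Whether any of them acts on a YUC gene in these embryos was not tested. STY1, whose element lies before YUC4, fell by 1.29 on the log2 scale from 34.6 ± 2.87 to 14.2 ± 5.27 TPM between the 8-cell and 16-cell stages (SE 0.24, limma adjusted p = 0.00843) and rose 2.83-fold to 40.4 ± 5.15 TPM at the 32-cell stage (adjusted p = 0.000875). From the 2/4-cell stage, at 31.9 ± 1.45 TPM, to the 8-cell stage STY1 was not called (limma adjusted p = 0.848), while YUC4 fell. At heart, with 44.9 ± 9.08 TPM, STY1 was not called against the 2/4-cell stage (limma adjusted p = 0.123), while YUC4 was lower. SHI, of the same family, had its highest mean, 72.1 ± 6.42 TPM, at the 8-cell stage and its lowest, 30.4 ± 6.11 TPM, at the 16-cell stage (adjusted p = 0.00263). Both falls were lost with only these stages in the fit (adjusted p = 0.271 for STY1 and 0.154 for SHI). LEC2, the B3 factor known to activate YUC4, had means of 79.7 ± 21.3, 92.9 ± 19.7, 46.3 ± 16.4, 26.2 ± 3.95, 22.3 ± 1.18 and 22.9 ± 1.49 TPM from the 2/4-cell to the heart stage. It was lower by 1.73 on the log2 scale at the heart than at the 2/4-cell stage (adjusted p = 1.89e-05), where FUS3 was higher.

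**Figure D5:**
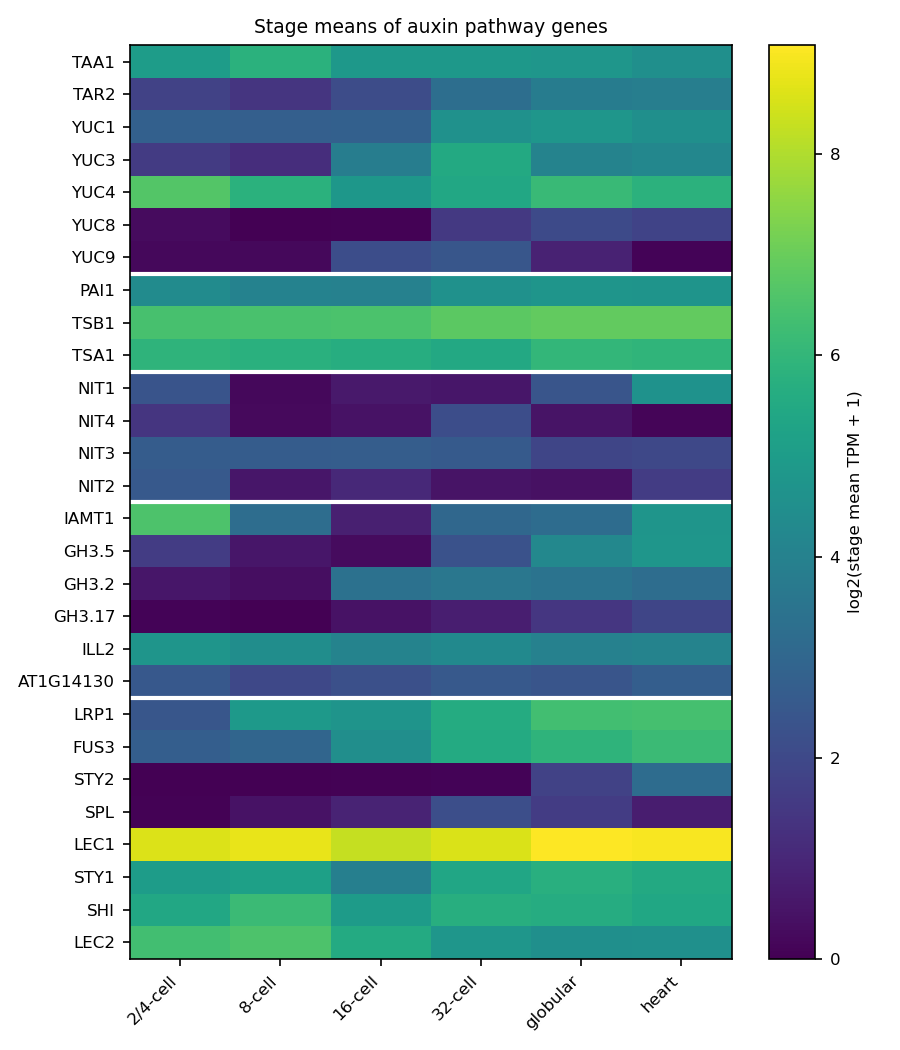
Stage means of auxin pathway genes as color (log2 of the mean TPM + 1, scale at right), with genes in rows and the 6 stages in columns; white lines part the 7 tested members, tryptophan synthesis, other routes, removal and release of auxin, and regulators. TSB1 and TSA1 keep a similar color across the stages, IAMT1 and YUC4 are high at the 2/4-cell stage, and LRP1 and FUS3 are highest at the heart stage.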

How the data were processed

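Poly(A) RNA of hand-isolated embryos was amplified to cDNA with a low-input kit and sequenced, per the labels' protocols. Per the submitters' processing notes, the authors used kallisto 0.44.0 to estimate transcript levels and Trim Galore 0.6.6 to trim adapters, and TAIR10 is the genome build named. They deposited 1 table of TPM for 27564 genes. The step from transcripts to genes is not given in the sources used here, and since TPM keeps no depth, counting error cannot be given. The members and gene lists were chosen with earlier results of these data known.

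Values were taken as log2(TPM + 1), a pseudocount of 1. The 18338 genes with 1 TPM or more in 3 libraries were fitted with limma 3.58.1 in R 4.3.3, with the 6 stages as groups and empirical Bayes variances that follow the mean level. An F test over the stages and all pairs of stages were tested, two-sided, with Benjamini-Hochberg adjustment over all genes tested within each comparison and 0.05 as the threshold. The fit was tested on simulated data. Text names all members, the other TAR and YUC genes, up to 4 called genes with the largest range and up to 2 uncalled genes with the highest mean from each pathway list, and 3 genes most like each member that reached 10 TPM. Results were recomputed with quantile normalization, median-ratio scaling or library weights, with a pseudocount of 0.1 or 5, with the filter dropped or raised to 5 TPM, with only the compared stages in the fit, with the replicate number as a block, and without each library in turn. Promoters and shared words were read from RefSeq's TAIR10.1 genome, joined by gene identifier. Not every pair of samples with the same replicate number had deviations correlated at over 0.1, so the numbers were not treated as pairs.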

Additional observations from a re-analysis of the deposited data

How the results depend on the processing

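Of 2362 recomputed gene-level results, 2204 kept their direction and their side of the threshold, 142 lost their call, 15 gained one and 1 changed sign. The counts of members called moved most in the small steps. From the 2/4-cell to the 8-cell stage 1 call became 0 with library weights and 0 with only the stages compared in the fit, and ranged from 0 to 2 with 1 library left out. From the 8-cell to the 16-cell stage 3 calls became 0 when the other stages were left out of the fit. There 0 of all genes were called by limma, while the unadjusted p was under 0.05 for 1675 genes, among them 4 members. From the 32-cell to the globular stage 2 calls became 0 with a pseudocount of 0.1, 1 with a filter of 5 TPM and 1 with quantile normalization, and ranged from 0 to 3 with 1 library left out. From globular to heart 0 became 1 with library weights. The count over all genes moved too: globular against 32-cell went from 355 to 3465 with library weights, and heart against globular from 106 to 2005. After median-ratio scaling the summed TPM of the YUC members at 2/4-cell was 119, the summed TPM of the YUC members at globular was 96.5 and the summed TPM of the YUC members at heart was 77.8. The summed TPM of the TAA members at 32-cell was then 34.6 and the summed TPM of the TAA members at heart was 28.1. The log2 difference of TAA1 between heart and 2/4-cell ranged from -0.86 to 0.13 with 1 library left out, and its sign changed without 2/4-cell replicate 1. The causes were not tested. With a replicate block the F test called 7 members instead of 6, adding TAA1 (adjusted p = 0.0366), and the pairwise counts were unchanged, 54 in all. Deviations of same-numbered samples correlated at -0.14 to 0.21, with 9 of 45 pairs over 0.1, and those of other-numbered samples at -0.24 to 0.26, with 7 of 90 over 0.1. Leaving out 2/4-cell replicate 3 and 32-cell replicate 2 together, chosen after seeing the data, made TAA1 lower at heart than at 2/4-cell (limma adjusted p = 0.0186). Without depth, differences among members under 1 TPM cannot be weighed.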
